A study of Mus musculus with 5 samples.

Results

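Cacna1s knockout (KO) myonuclei were compared with wild-type (WT) myonuclei of the same age, E18.5 (E for embryonic day), in mouse hindlimb skeletal muscle. Myonuclei, the nuclei inside muscle fibers, were taken as nuclei with 401 to 24999 RNA molecules (UMIs, unique molecular identifiers) of which Ttn, the giant sarcomere protein titin, made up at least 1%. Nuclei with 3 or more UMIs of the cell cycle genes Mki67, Top2a and Cenpf together were left out. This gave 928 KO and 1540 WT myonuclei, 2468 of the 8056 barcodes in both libraries and of 10476 myonuclei in the whole series. The series held 5 libraries in which RNA and open chromatin (ATAC) were read from the same nuclei. The KO library came from 26 pooled hindlimbs of Cacna1s-/- fetuses on C57bl6n, in which the KOMP Velocigene cassette ZEN-Ub1 takes the place of the coding region. The WT library came from 14 pooled hindlimbs of C57bl6n fetuses at the same stage. WT libraries from E14.5, postnatal day 5 (P5) and adult muscle, with 1852, 1721 and 4435 myonuclei, give the stages on either side. Sorted PCM1+ and PCM1- nuclei were mixed in equal volumes before loading, so the number of myonuclei in a library says nothing of the muscle's makeup.

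Contraction begins when the membrane of the fiber depolarizes and the voltage sensor Cav1.1, whose pore-forming subunit is encoded by Cacna1s, opens the ryanodine receptor of the sarcoplasmic reticulum. Calcium then leaves the reticulum, starts the sarcomere and also drives signaling to the nucleus. Without Cacna1s, fetal muscle is paralyzed while its nerves still reach it, and the mice die at birth. Fibers meanwhile exchange embryonic isoforms of contractile and synaptic proteins for adult ones, and a fiber that loses its nerve later in life brings several of the early genes back. The comparison asks how a fiber that never contracts differs in its RNA and open chromatin.

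Each genotype was a single library, so no test across samples was possible and no p-value is given. UMIs were summed over the myonuclei of a library, 10078495 in KO and 12076486 in WT, and written as CPM, counts per 1000000 UMIs. Ratios carry exact conditional 95% intervals in parentheses, which cover counting error only and neither animals nor preparation. A gene was called higher or lower when its CPM differed at least 2-fold and either library held 20 UMIs. KO myonuclei were deeper, with a median of 10021 UMIs and 3001.5 genes each, against 6818 UMIs and 2412.5 genes in WT. Ttn made up a median of 2.36% of the UMIs of KO myonuclei and 2.74% of those of WT myonuclei, and mitochondrial genes 0.0317% and 0.0438%. All 10 myonuclear markers (Ttn, Neb, Acta1, Actn2, Ryr1, Myh8, Tnnt3, Dmd, Mylpf and Ckm) were within 2-fold between genotypes. The KO library lists fewer barcodes than the study's own filter is said to have kept, which is unexplained. The libraries shared 23 barcodes, 2 of them myonuclear in both. The upper limit removed 161 KO and 64 WT nuclei with enough Ttn.

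Cacna1s itself was nearly silent in the KO library, which checks its label. It had 7 UMIs in 7 KO myonuclei, against 2337 UMIs in 966 WT myonuclei. This was 0.695 CPM (0.279 to 1.43, exact Poisson) in KO and 194 CPM (186 to 202) in WT, 279-fold lower in KO (135 to 694). WT myonuclei held 208 CPM at E14.5, 352 at P5 and 326 in adult, so the KO level was below that of every WT stage. With each nucleus thinned to 2000 UMIs, 0 of 911 KO myonuclei held a Cacna1s UMI (exact upper limit 0.404%), against 29.9% of 1516 WT myonuclei (27.6 to 32.3). Before thinning the shares were 0.754% in KO and 62.7% in WT. Nuclei with Ttn under 0.2%, called other nuclei here by a limit set after the data were seen, held none after thinning in either library.

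The chromatin at the start of Cacna1s was open in both genotypes. Peaks within 1 kb of its start site held 334 KO and 886 WT counts, which is 64.6 and 62.6 CPM of all ATAC counts, a ratio of 1.03 (0.908 to 1.17). Farther into the gene the libraries differed. KO had no peak between the start and 52.3 kb, where it had one, and a further peak at 63.6 kb. WT had 4 peaks between 8.62 and 23.5 kb, of 22.5, 24.4, 8.90 and 9.67 ATAC CPM, and another at 52.2 kb. In all, 3 KO peaks in the gene held 68.5 ATAC CPM and 6 WT peaks held 118. The cassette replaces coding sequence, so between 8.62 and 23.5 kb loss of the DNA and loss of accessibility cannot be told apart, while the peak at 52.3 kb held 25.2 ATAC CPM in KO, against 17.1 in WT. The promoter that stayed accessible (RefSeq, GRCm38.p6, chr1:136052561-136052860, + strand, 250 bases before to 50 after the start) is shown with motif matches in capitals.
Cacna1s: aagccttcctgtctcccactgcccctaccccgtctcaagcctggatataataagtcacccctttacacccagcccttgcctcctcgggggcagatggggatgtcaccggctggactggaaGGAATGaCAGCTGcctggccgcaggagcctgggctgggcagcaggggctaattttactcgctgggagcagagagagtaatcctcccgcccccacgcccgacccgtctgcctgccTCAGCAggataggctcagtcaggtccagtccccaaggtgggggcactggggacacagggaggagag
Searched on both strands were CAGCTG (an E-box that myogenic factors can bind), GGAATG (TEAD), CCACCC (KLF), TGCTGA (a MAF half-site) and, by name, the MEF2 site and the CArG box. The Cacna1s window held GGAATG at base -130, CAGCTG at -123 and TGCTGA at -16, the last on the other strand and so read as TCAGCA. Of 32851 RefSeq promoter windows of mouse, 16.3% held CAGCTG, 14.7% GGAATG, 31.5% CCACCC, 19.5% TGCTGA, 3.19% the MEF2 site and 1.63% the CArG box. These are matches of letters, not sites of binding.

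Of 14261 genes measured, 849 were called higher in KO (5.95%) and 853 lower (5.98%). The median log2 ratio over all genes was -0.05, and every list below is to be read against these shares. With each nucleus thinned to 1000 UMIs the calls were 317 higher and 517 lower, so that most calls were then lower ones. The lists and the genes named were chosen with earlier results of these data known. Those taken from the study were picked by it on these same libraries, so their directions are not independent evidence.

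Developmental genes leaned to higher levels in KO: of 9 that the study names, 3 were called higher and 0 lower, with a median log2 ratio of 0.66. Col25a1, a membrane collagen that fetal muscle needs for motor axons to enter it, stood out. It held 2650.1 CPM in KO and 545 in WT, 4.86-fold higher (4.73 to 5.00), and 1241, 168 and 3.03 CPM in WT at E14.5, P5 and adult. KO Col25a1 thus exceeded the level of every WT stage. At equal depth 55.7% of KO myonuclei (52.4 to 58.9) held a Col25a1 UMI, against 17.5% of WT myonuclei (15.6 to 19.5), while other nuclei had it at 84.9 CPM in KO and 159.9 in WT. Fstl4, a follistatin-like secreted protein, had 30.1 CPM in KO and 9.52 in WT (3.16-fold, 2.54 to 3.95). Mymx, the fusion protein myomixer, had 14.9 CPM in KO and 6.79 in WT (2.19-fold, 1.66 to 2.91). The fetal acetylcholine receptor subunit Chrng (144 CPM in KO, 86.4 in WT), the embryonic troponin Tnnt2 (274 and 173), the fusion protein Mymk (65.5 and 42.3) and Tmem108 (134 and 99.7) lay between 1.34-fold and 1.67-fold higher, short of the call. The embryonic myosin Myh3 was at 920.5 CPM in KO and 1023 in WT, and the perinatal Myh8 at 2894 and 3283, so the early myosins did not share the direction of Col25a1. The plot of levels of the study's genes shows these side by side.

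**Figure D1:**
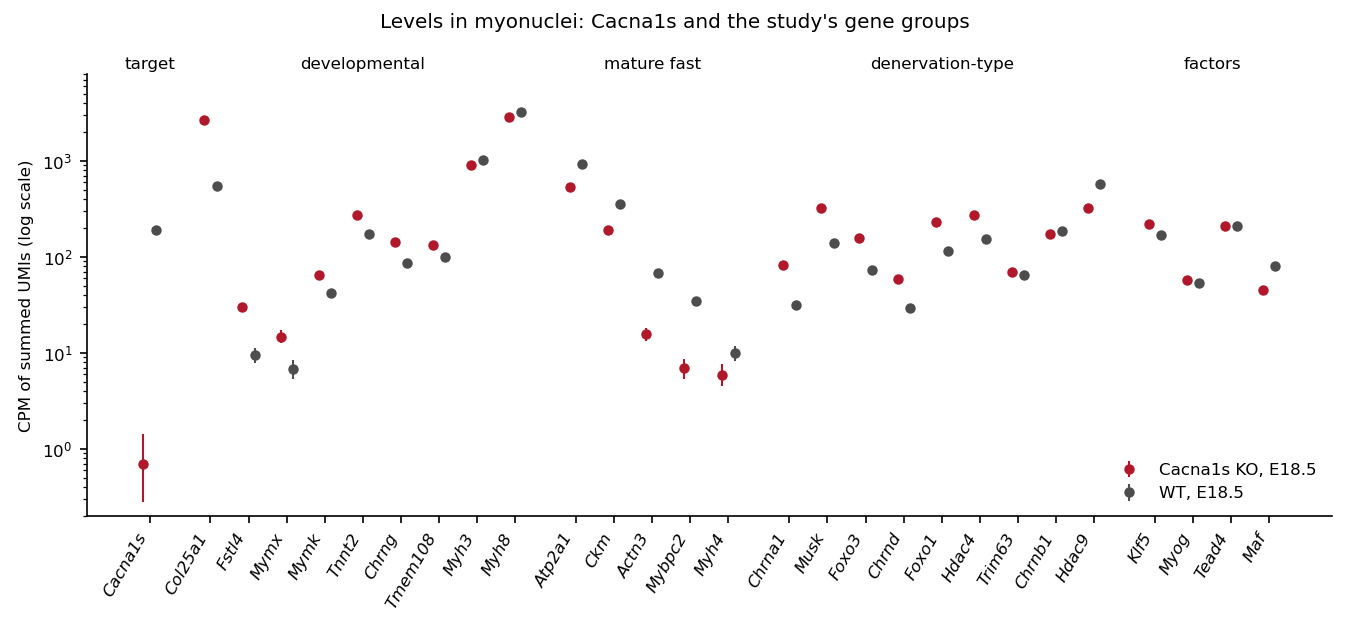
Level of Cacna1s and of the genes the study names in summed KO (red, left) and WT (grey, right) E18.5 myonuclei, in CPM on a log axis, with exact Poisson 95% intervals (counting error only). Cacna1s sits at 0.695 CPM in KO and 194 in WT, Col25a1 at 2650.1 and 545, Actn3 at 15.7 and 68.1, and Chrna1 at 83.6 and 31.7, while Myh3, Tead4 and Chrnb1 lie close together.

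Mature fast genes of the study leaned the other way: 0 of 5 were called higher and 2 lower, with a median log2 of -0.89. Mybpc2, the fast form of myosin binding protein C, had 70 KO and 420 WT UMIs, 6.95 and 34.8 CPM, 5.01-fold lower in KO (3.88 to 6.55). Actn3, the fast-fiber α-actinin of the Z-disc, had 158 KO and 823 WT UMIs, 15.7 and 68.1 CPM, 4.35-fold lower (3.66 to 5.19). Both climb steeply in WT, Mybpc2 over 0.201, 239 and 776 CPM and Actn3 over 15.98, 211 and 460.1 CPM at E14.5, P5 and adult. The E18.5 KO level of Actn3 was near the WT level of E14.5. At equal depth 2.96% of KO and 11.1% of WT myonuclei held Actn3, and 1.21% and 5.21% held Mybpc2. The creatine kinase Ckm (193 CPM in KO, 359 in WT), the calcium pump Atp2a1 (531 and 939) and the fast myosin Myh4 (5.95 and 10.0) had KO over WT ratios of 0.538, 0.566 and 0.594, under the fold set for a call. Myonuclei with Mymk, Mymx or Myog were 564 of 928 in KO and 618 of 1540 in WT at unequal depth. At equal depth 12.6% of KO and 6.73% of WT myonuclei held Mymk, 3.51% and 1.45% Mymx, and 11.1% and 9.76% Myog. Without the nuclei with any of the 3 all 5 mature fast genes were called lower, with a median log2 of -1.39. Thinned to 1000 UMIs per nucleus, 3 of 4 mature fast genes still measured were lower and 0 higher, with a median log2 of -1.53.

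In a wider list of 14 adult fast sarcomere genes 6 were lower and 0 higher, with a median log2 of -0.77. Pvalb, the calcium buffer parvalbumin that lets fast fibers relax, had 2 UMIs in KO and 96 in WT, 40.1-fold lower (10.8 to 336), and was at 0, 204 and 704 CPM in WT at E14.5, P5 and adult. Mylk2, the kinase of skeletal myosin light chain, had 15.1 CPM in KO and 57.6 in WT (3.82-fold lower, 3.20 to 4.58). The adult fast myosins Myh2 (3.27 CPM in KO, 10.1 in WT) and Myh1 (15.5 and 31.2) were 3.09-fold and 2.02-fold lower. Their reads may be shared with other myosin genes of near-identical sequence. The fast troponins Tnnc2 and Tnni2 had ratios of 1.19 and 0.806, so the list did not move as a whole. In the myosin and troponin isoforms of the embryo, 0 of 9 genes were higher and 1 lower, Myl6b, with 13 KO and 55 WT UMIs (3.53-fold, 1.90 to 7.05).

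Of 13 slow-fiber genes 3 were lower and 0 higher, and the other 10 were within 2-fold (median log2 -0.41). Thinned to 1000 UMIs per nucleus, 1 of 11 was lower. Myl2, the slow regulatory light chain, had 7 UMIs in KO and 400 in WT, 0.695 and 33.1 CPM, 47.7-fold lower (22.9 to 119). Myl3, the slow essential light chain, had 2.08 CPM in KO and 13.2 in WT (6.32-fold lower, 4.00 to 10.5). Myh7, the slow myosin, had 51.1 CPM in KO and 108 in WT (2.12-fold lower, 1.91 to 2.35). Its log2 was 0.24 once nuclei with Myh7 of at least 0.1% of UMIs, 16 in KO and 66 in WT, were left out. Those nuclei were chosen by Myh7 itself, so the filter partly sets that value. At equal depth 6.59% of KO and 7.45% of WT myonuclei held a Myh7 UMI, against 0.259% of KO and 0.0837% of WT other nuclei. Of the WT nuclei with Myl2, 76 of 87 also held Myh7, and 6 of 7 did in KO. Of the nuclei with Myh7, before thinning, 6 of 117 in KO and 76 of 155 in WT held Myl2. Myl2 was thus rarer among the nuclei with any Myh7 UMI. Of these, only 16 in KO and 66 in WT had Myh7 at 0.1% of UMIs or more. A lower Myl2 level in slow nuclei and fewer slow nuclei therefore cannot be told apart here. How much fewer slow nuclei add to the difference was not tested.

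Genes of the Z-disc and of the response to stretch held some of the widest differences, with 0 of 26 higher and 7 lower and a median log2 of -0.49. Xirp2, an actin-binding repeat protein of the myofibril edge, had 346 UMIs in KO and 3217 in WT, 34.3 and 266 CPM, 7.76-fold lower (6.94 to 8.69). It was at 1.21, 1220.3 and 1071 CPM in WT at E14.5, P5 and adult, and it was seen in 61 KO and 437 WT myonuclei at E18.5. Nrap, which links actin during myofibril assembly, had 96.2 CPM in KO and 322 in WT (3.34-fold lower, 3.12 to 3.59). The stretch-responsive ankyrin repeat proteins Ankrd2 (14 KO and 155 WT UMIs, 9.24-fold, 5.34 to 17.3) and Ankrd1 (12.3 CPM in KO, 44.9 in WT, 3.65-fold, 3.00 to 4.47) were lower too. Lmod2, Csrp3 and Myot, which lengthen thin filaments or sit at the Z-disc, were 2.50-fold, 2.45-fold and 2.06-fold lower. Ankrd1 levels decline in WT over 77.8, 35.0 and 0.908 CPM from E14.5 to adult, unlike Xirp2, so the list holds genes of opposite course. The antisense gene Gm13601 lies inside Xirp2 and had 3 UMIs in KO and 121 in WT (33.7-fold lower, 11.2 to 165). Whether the counting used strand is not stated, so its reads and those of Xirp2 cannot be told apart. The dystrophin complex, with 0 of 15 called (median log2 -0.11), showed no such shift: Dmd had 17551 CPM in KO and 14733 in WT.

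**Figure D2:**
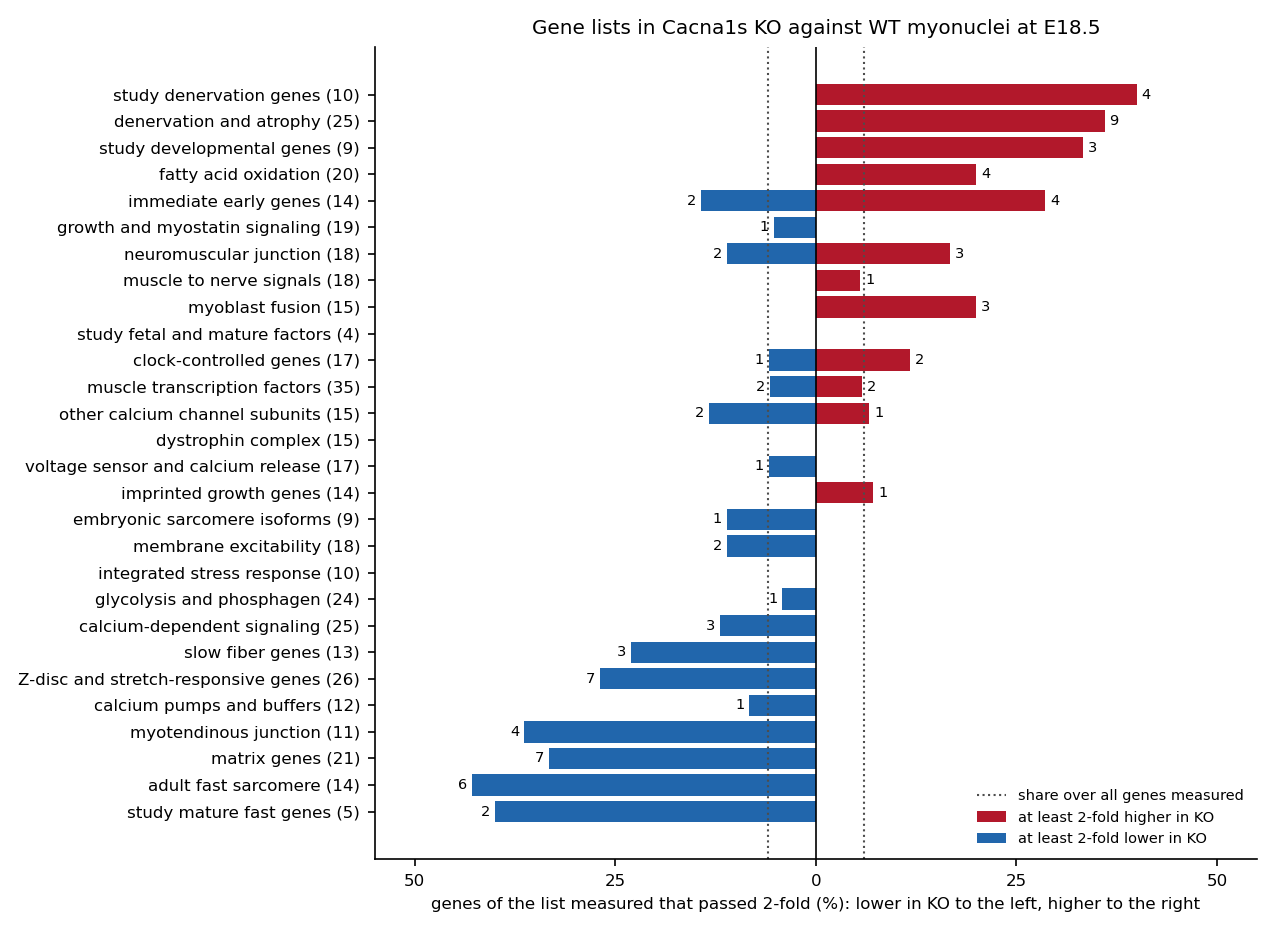
Share of each list's measured genes at least 2-fold lower (blue, left) or higher (red, right) in KO than in WT E18.5 myonuclei, in percent. The dotted lines mark all genes, 5.98% lower and 5.95% higher. The denervation and atrophy list reaches 9 of 25 genes higher with 0 lower, and the adult fast sarcomere list 6 of 14 lower with 0 higher.

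Genes known to respond to denervation of adult muscle leaned to higher levels. Of 10 that the study names, 4 were called higher and 0 lower, with a median log2 of 0.91. Chrna1, the α subunit of the acetylcholine receptor, had 843 UMIs in KO and 383 in WT, 83.6 and 31.7 CPM (2.64-fold, 2.33 to 2.98), and at equal depth 15.9% of KO and 6.003% of WT myonuclei held it, against 1.14% and 0.670% of other nuclei. Musk, the synaptic receptor tyrosine kinase, had 321 CPM in KO and 139 in WT (2.31-fold, 2.18 to 2.45), in 37.2% and 18.1% of myonuclei at equal depth. The atrophy factor Foxo3 had 158 CPM in KO and 74.1 in WT (2.13-fold, 1.97 to 2.32), and Foxo1 234 and 117, just under the fold for a call. Chrnd, the δ subunit, was at the border, with 59.0 CPM in KO and 29.4 in WT (2.01-fold, 1.76 to 2.30), and lost its call in 8 of the alternatives. Hdac4 (273 CPM in KO, 155 in WT), Trim63 (70.6 and 64.6) and Chrnb1 (172 and 186) had ratios of 1.76, 1.09 and 0.926. Hdac9, a deacetylase that falls after denervation, had 323 CPM in KO and 583 in WT, and at equal depth 33.6% of KO and 57.1% of WT myonuclei held it. So the receptor genes did not all move: the α and δ subunits were called, Chrng was 1.67-fold higher and the β subunit was level.

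The 4 transcription factors that the study sets at fetal and mature stages were within 2-fold with all myonuclei, and Maf was called lower when nuclei with RNA of other cell types were left out. Thinned to 1000 UMIs per nucleus, 1 of the 4 was called lower and 0 higher. Maf had 45.6 CPM in KO and 81.7 in WT, a ratio of 0.558 (0.499 to 0.624), and at equal depth 6.59% of KO and 12.1% of WT myonuclei held it. In other nuclei Maf was at 174 CPM in KO and 142 in WT. Its log2 ratio was -0.84 with all myonuclei, -1.40 (2.64-fold lower) without nuclei with mesenchymal UMIs and -1.38 (2.60-fold lower) without nuclei with UMIs of any other cell type. Klf5 had 222 CPM in KO and 168 in WT (1.32-fold), Myog 57.6 and 54.2 (1.06-fold) and Tead4 211 and 212 (ratio 0.994, 0.938 to 1.05). Over a wider list of 35 muscle transcription factors, Runx1 and Myf5 were higher, Klf4 and Nfic lower. Runx1, which denervated muscle induces, had 146 CPM in KO and 60.8 in WT (2.40-fold, 2.19 to 2.63) in myonuclei, and 134 and 63.2 CPM in the other nuclei of the same libraries. Nfic had 24.4 CPM in KO and 54.5 in WT (2.23-fold lower, 1.93 to 2.60). Klf4 had 7.84 and 25.7 CPM (3.27-fold lower), with 10.9 and 51.7 in other nuclei.

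The general list of denervation and atrophy genes had the largest share of higher calls among the lists from general knowledge, 9 of 25, with 0 lower and a median log2 of 0.70. Fbxo32, the ubiquitin ligase atrogin-1, had 520 UMIs in KO and 126 in WT, 51.6 and 10.4 CPM (4.95-fold, 4.06 to 6.06). WT levels of Fbxo32 were 16.9 CPM at E14.5, 26.4 at P5 and 464 in adult, so the KO level passed that of P5 but not of adult muscle. Its partner in atrophy Trim63 was near its WT level, as given above. Eda2r, a TNF receptor family member, had 135 CPM in KO and 37.0 in WT (3.63-fold, 3.26 to 4.05), and Ampd3, an AMP deaminase, 34.1 and 10.2 (3.35-fold, 2.72 to 4.15). Bnip3, a mitophagy receptor, had 47.7 CPM in KO and 14.7 in WT (3.26-fold), and it was also higher in the other nuclei, at 74.5 and 19.2 CPM. The metallothioneins Mt1 and Mt2 were 3.69-fold and 3.36-fold higher. Without the nuclei that held Mymk, Mymx or Myog, 11 of 24 were higher and 0 lower.

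Of 20 genes of fatty acid use 4 were higher and 0 lower, and 16 were within 2-fold (median log2 0.28). Cd36, the fatty acid transporter, had 8672 UMIs in KO and 2961 in WT, 860.4 and 245 CPM (3.51-fold, 3.37 to 3.66). Other nuclei had Cd36 at 107 CPM in KO and 23.5 in WT, so it was higher in both sets of nuclei, which come from the same libraries. Pdk4, which turns fuel use away from glucose, had 29.4 CPM in KO and 7.87 in WT (3.73-fold, 2.95 to 4.76). Ucp3, a mitochondrial carrier, had 23.7 and 6.62 CPM (3.58-fold, 2.77 to 4.67). Lpl, lipoprotein lipase, had 136 CPM in KO and 57.6 in WT (2.37-fold, 2.16 to 2.60), with 158 and 62.5 CPM in other nuclei. Pdk4 and Ucp3 are genes that climb in WT, over 1.00, 147 and 118 CPM and over 0.904, 141 and 135 CPM at E14.5, P5 and adult. Higher in KO was therefore not always the direction of the younger stage. Glycolysis and phosphagen genes had 0 of 24 higher and 1 lower (median log2 -0.27), the mitochondrial creatine kinase Ckmt2 at 63.4 CPM in KO and 164 in WT (2.58-fold lower, 2.36 to 2.83). Phkb, a subunit of the kinase that starts glycogen breakdown, had a ratio of 0.925.

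Most partners of Cav1.1 were within 2-fold, as were most genes measured. Among 17 genes of the voltage sensor and calcium release, 0 were higher and 1 lower, with a median log2 of -0.14. That is near the share of all genes, 5.95% higher and 5.98% lower, so the list did not stand out. The exception was Casq1, the calcium-binding protein of the reticulum, at 126 CPM in KO and 267 in WT (2.13-fold lower, 1.99 to 2.27). The accessory subunit Cacna2d1 had 3007 CPM in KO and 3108 in WT, a ratio of 0.967 (0.953 to 0.982). Trdn, the triadin that anchors Casq1 near the ryanodine receptor, had 2461 CPM in KO and 3536 in WT, a ratio of 0.696. The rest lay between 0.64, Jsrp1, and 1.41, Jph1, so Casq1 was the only member past 2-fold. Of 12 calcium pumps and buffers 1 was lower, Pvalb (median log2 -0.56), while the store sensor Stim1 was at 542 CPM in KO and 560.3 in WT. Other calcium channel subunits had 1 of 15 higher and 2 lower, all at low levels: Cacna1i with 23 KO and 10 WT UMIs (2.76-fold, 1.26 to 6.49), Cacna1g at 4.66 CPM in KO and 11.1 in WT, and Cacng4 with 11 and 28 UMIs.

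Among 18 genes of membrane excitability 0 were higher and 2 lower (median log2 -0.19). Kcnn2, the calcium-activated potassium channel SK2, had 89.6 CPM in KO and 387 in WT (4.31-fold lower, 4.02 to 4.64). Kcna7, a voltage-gated potassium channel, had 5 UMIs in KO and 42 in WT (7.01-fold lower, 2.78 to 22.7). Of 25 genes of calcium-dependent signaling 0 were higher and 3 lower (median log2 -0.34). Creb5, a CREB family factor, had 35.8 CPM in KO and 249 in WT (6.95-fold lower, 6.23 to 7.77), with 269 and 989.9 CPM in other nuclei. Leaving out nuclei with markers of other cell types made the myonuclear difference wider, at a log2 of -4.54. Nfatc4 was 2.45-fold lower, with 34 UMIs in KO and 100 in WT. Camk4, a calmodulin-dependent kinase, was 2.27-fold lower, with 42 and 114 UMIs, and 1.12-fold lower without nuclei with UMIs of other cell types. Other nuclei had Camk4 at 23.3 CPM in KO and 50.6 in WT.

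Immediate early genes split: 4 of 14 were higher and 2 lower, with a median log2 of 0.24. Egr1 had 47.2 CPM in KO and 17.1 in WT (2.76-fold, 2.34 to 3.26), in 110 KO and 74 WT myonuclei. Egr3 (50 KO and 16 WT UMIs, 3.74-fold), Nr4a3 (2.76-fold) and Junb (2.16-fold) were higher too. Npas4, a factor that neurons switch on with calcium entry, had 4 UMIs in KO and 30 in WT (6.26-fold lower, 2.21 to 24.5), and Nr4a1 12.9 CPM in KO and 31.9 in WT (2.47-fold lower, 2.02 to 3.04). Without nuclei that held Mymk, Mymx or Myog, 2 of 11 were higher and 6 lower (median log2 -1.11). The median was also below 0 after thinning to 1000 UMIs (-0.72, 1 of 5 higher) and without nuclei with Myf5 or Pax7 (-0.04), so the sign of the list's median was not stable.

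At the neuromuscular junction, 3 of 18 genes were higher and 2 lower (median log2 0.19). The higher ones, Chrna1, Musk and Chrnd, are given above. Ache, acetylcholinesterase, had 9.13 CPM in KO and 20.9 in WT (2.30-fold lower, 1.80 to 2.95). Ufsp1, whose RNA is enriched under the synapse, had 9.53 and 27.0 CPM (2.83-fold lower, 2.25 to 3.60). The α and δ receptor subunits, the δ subunit at the border of a call, thus moved opposite to the enzyme, while the β subunit was level. Signals from muscle to nerve had 1 of 18 higher, Col25a1, and 0 lower. Ncam1, the adhesion molecule that spreads over the fiber surface without a nerve, had 2543 CPM in KO and 1726 in WT, 1.47-fold higher. Fusion genes had 3 of 15 higher (median log2 0.08): Mymx, Dock5 with 95 KO and 42 WT UMIs (2.71-fold, 1.87 to 4.00), and Stab2, of whose 90 KO UMIs 60 came from 8 nuclei with Mmrn1 (log2 of 0.22 without these).

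Smaller lists held few calls. Cdkn1c, an imprinted inhibitor of the cell cycle, had 149.8 CPM in KO and 69.1 in WT (2.17-fold), the 1 of 14 imprinted growth genes called, while the noncoding Meg3 had 14423 CPM in KO and 20872 in WT and Rian 12710.5 and 16047. Of 19 genes of growth and myostatin signaling 1 was lower, Fstl1, at 55.6 CPM in KO and 112 in WT, and it lost its call in 9 alternatives. Among clock-controlled genes Bhlhe41 was 2.82-fold higher and Nr1d1 2.28-fold lower. The integrated stress response had 0 of 10 called, with Atf4 at 36.7 CPM in KO and 55.8 in WT.

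Of 11 genes of the myotendinous junction, the tip of the fiber, 4 were lower in KO and 0 higher, and 7 were within 2-fold (median log2 -0.60). Tnc, a matrix protein of tendon junctions, had 354 UMIs in KO and 2138 in WT, 35.1 and 177 CPM (5.04-fold lower, 4.50 to 5.66). Thbs4, thrombospondin 4, had 4.46 CPM in KO and 18.8 in WT (4.21-fold lower, 3.05 to 5.93). Col22a1, the collagen that marks tip nuclei, had 66.8 CPM in KO and 174 in WT (2.60-fold lower, 2.38 to 2.84), in 90 KO and 257 WT myonuclei. At equal depth 4.83% of KO and 10.6% of WT myonuclei held it. Other nuclei also held less Col22a1 in KO, with 0.311% of KO and 3.64% of WT nuclei and 5.85 and 53.4 CPM. Matrix genes had 0 of 21 higher and 7 lower (median log2 -0.70). Col1a1, a chain of type I collagen, had 907 UMIs in KO and 5380 in WT, 90.0 and 445 CPM (4.95-fold lower, 4.61 to 5.32), and Col1a2 158 and 473 CPM (2.99-fold lower, 2.83 to 3.17). Both are made mainly by connective tissue cells. The other nuclei of the same libraries, a mix of cell types, had Col1a1 at 502 CPM in KO and 1936 in WT and Col1a2 at 1067 and 2548. A different mix of cells and a different level within connective tissue cells cannot be told apart in these sums.

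RNA of other cell types also differed between the 2 sets of myonuclei, in tendon and connective tissue markers in the direction of the matrix genes. Tenocyte markers summed to 58.3 CPM in KO and 196.7 in WT, with 5 of 7 lower, mesenchymal markers to 292 and 421 with 5 of 10 lower, and chondro-osteogenic markers to 17.7 and 42.9 with 2 of 4 lower. Endothelial markers summed to 93.1 CPM in KO and 56.6 in WT, with 4 of 7 higher, and adipocyte markers to 60.7 and 34.0. Macrophage markers summed to 70.6 CPM in KO and 73.2 in WT, with 2 of 5 higher and 1 lower, Schwann cell markers to 116 and 107 with 2 of 4 higher, and erythroid markers to 27.5 and 13.0005 with 2 of 5 higher. Nuclei in which markers of other types reached 0.2% of UMIs were 153 in KO and 308 in WT, and they were left out in an alternative chosen after the data were seen. Col1a1, Col1a2 and Col3a1 counted among those markers, so the filter itself partly sets their values. Without these nuclei 5 of 21 matrix genes were lower. The log2 ratio of Col1a1 was then -1.46, against -2.31 with all myonuclei, and that of Col1a2 -0.72, against -1.58. In the same alternative the developmental list had 3 of 9 higher, the study's denervation list 4 of 10, the fatty acid list 4 of 20 and the atrophy list 10 of 25, and the adult fast sarcomere list had 6 of 14 lower, the Z-disc list 7 of 26 and the myotendinous junction list 5 of 11. Calcium-dependent signaling had 1 of 24 lower, against 3 of 25 with all myonuclei. Of 7 mesenchymal markers still measured 1 was higher and 1 lower, and of 4 endothelial markers 0 were called. These markers were used in the filter, so their lost calls are partly set by it. Myogenic progenitor markers summed to 312 CPM in KO and 162 in WT, with Megf10 (197 and 68.1 CPM, 2.89-fold) and Myf5 (14.1 and 5.63, 2.50-fold) called and Pax7 at a ratio of 0.837. Trp63, which was on the keratinocyte list, had 1083 CPM in KO and 288 in WT (3.76-fold, 3.61 to 3.90) and was singled out after its values were seen. The keratins Krt5, Krt14 and Krt15 of that list were under 20 UMIs in both libraries, and other nuclei had Trp63 at 11.3 CPM in KO and 1.70 in WT.

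The 12 genes highest by the lower bound of the ratio included several noncoding RNAs. The lincRNA 4930544I03Rik had 5945 UMIs in KO and 364 in WT, 589.9 and 30.1 CPM (19.6-fold, 17.6 to 21.8), in 265 KO and 70 WT myonuclei. Its WT levels at E14.5, P5 and adult, 38.7, 3.98 and 0.454 CPM, were all far below the KO level. It lies on chromosome 12 at 90753208 to 90969798 (- strand), where Gm26512 (90738201 to 90869235, + strand) overlaps it and Dio2 (90724552 to 90738438, - strand) overlaps the start of Gm26512. Dio2, the deiodinase that activates thyroid hormone, had 182 UMIs in KO and 16 in WT (13.6-fold, 8.17 to 24.4), and Gm26512 714 and 55 (15.6-fold, 11.8 to 20.9). In KO 84 of 90 nuclei with Dio2 and 149 of 158 with Gm26512 also held 4930544I03Rik, so these 3 may share reads or transcripts.

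The lincRNAs 4732465J04Rik (83.8 CPM in KO, 4.14 in WT, 20.3-fold, 15.2 to 27.5) and 4921539H07Rik (138 and 15.7, 8.82-fold, 7.57 to 10.3) followed. At equal depth 16.7% of KO and 2.37% of WT myonuclei held 4921539H07Rik. Csmd1, a membrane protein with complement control domains, had 153 CPM in KO and 13.5 in WT (11.4-fold, 9.67 to 13.4), and 215 in WT at E14.5. Csmd1 was thus near its embryonic level, whereas 4732465J04Rik had 0.603 CPM at E14.5. The copine Cpne7 (97 KO and 7 WT UMIs), Gm50064 (69 and 4), the bile acid receptor relative Nr1h5 (51 and 1; 61.1-fold, 10.5 to 2460.5) and the neuronal factor Myt1l (46 and 2; 27.6-fold, 7.21 to 234) rest on few WT UMIs. Mmrn1, a secreted protein of lymphatic endothelium, had 110 KO UMIs in 8 nuclei and 2 WT UMIs (65.9-fold, 17.8 to 551). Those 8 nuclei also held 136 of 144 KO UMIs of Tc2n, 37 of 37 of Ccl21a and 21 of 25 of Lyve1, the last pair being lymphatic genes chosen after the values were seen. Mmrn1 and Tc2n therefore rest mostly on 8 of 928 nuclei.

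**Figure D3:**
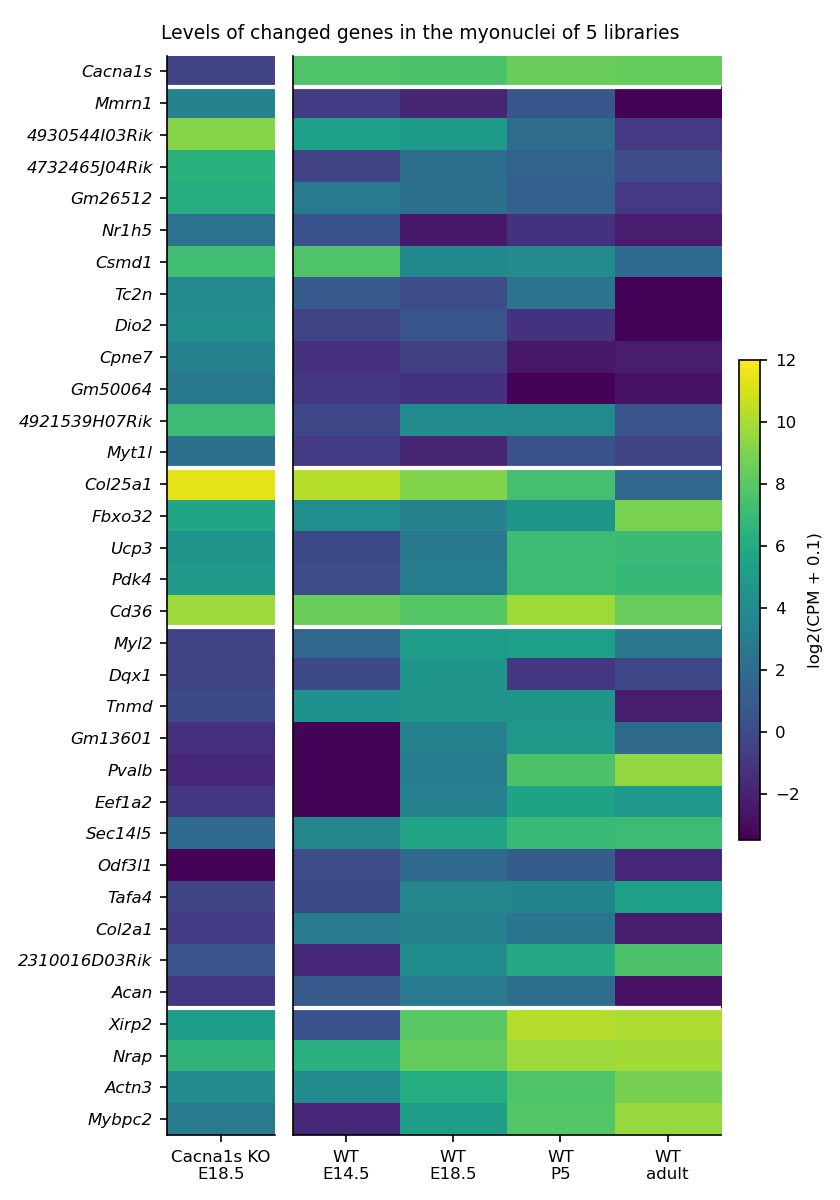
Levels as log2(CPM + 0.1) in myonuclei of KO E18.5 and then WT E14.5, E18.5, P5 and adult, for Cacna1s, the 12 genes higher and the 12 lower by the interval rule, and 9 genes of the lists. Rows such as Xirp2 (34.3 CPM in KO, then 1.21, 266, 1220.3 and 1071) brighten with WT age, 4930544I03Rik (589.9, then 38.7, 30.1, 3.98 and 0.454) is brightest in KO, and Cacna1s is dark in KO only.

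The 12 lowest genes included muscle genes that climb in WT, cartilage and tendon genes, and genes seen in few nuclei. Eef1a2, a translation elongation factor of mature muscle and neurons, had 4 UMIs in KO and 120 in WT, 0.397 and 9.94 CPM (25.04-fold lower, 9.53 to 93.4). WT had Eef1a2 at 0, 44.8 and 26.9 CPM at E14.5, P5 and adult. Sec14l5, a lipid-binding protein of the Sec14 family, had 37 UMIs in 33 KO nuclei and 554 in 345 WT nuclei (12.5-fold lower, 8.95 to 17.9), with WT levels of 11.5, 124 and 141 CPM. The lincRNA 2310016D03Rik had 13 KO and 200 WT UMIs (12.8-fold lower, 7.34 to 24.5), with 0.201, 57.3 and 201 CPM at the WT stages. Pvalb, Myl2 and Gm13601, given above, were also higher in WT at P5 than at E14.5. Eef1a2 and Sec14l5 were found together in 43 of the 85 WT nuclei with Eef1a2 and in 0 of the 4 KO nuclei with it. With so few KO nuclei the 0 says nothing of whether the genes go together. The promoter of Eef1a2 (chr2:181156966-181157265, - strand) is shown because no KO peak was called at its start, where WT had 154 counts.
Eef1a2: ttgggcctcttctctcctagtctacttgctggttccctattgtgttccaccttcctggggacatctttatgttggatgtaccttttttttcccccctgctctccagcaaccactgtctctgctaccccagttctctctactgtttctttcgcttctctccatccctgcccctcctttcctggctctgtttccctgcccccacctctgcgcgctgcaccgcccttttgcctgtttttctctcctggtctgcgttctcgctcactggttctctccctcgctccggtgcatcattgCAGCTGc
It held CAGCTG at base 43 past the start and none of the other motifs.

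The cartilage and tendon genes were low in other nuclei of KO too. Tnmd, tenomodulin, had 9 KO and 282 WT UMIs (26.1-fold lower, 13.6 to 57.8), Col2a1 5 and 117 (19.5-fold, 8.13 to 61.3) and Acan 4 and 93 (19.4-fold, 7.33 to 72.7). In other nuclei the same genes had 16.6 CPM in KO and 120.3 in WT (Tnmd), 4.81 and 42.3 (Col2a1) and 5.26 and 45.8 (Acan). Of 81 WT myonuclei with Tnmd, 26 held Acan and 24 held Col22a1. The remaining genes came from few WT nuclei or had few UMIs. Dqx1 had 6 KO UMIs and 287 WT UMIs in 22 nuclei (39.9-fold lower, 18.1 to 109.7), and Tafa4 7 KO UMIs and 147 WT UMIs in 25 nuclei (17.5-fold, 8.30 to 44.4). For Dqx1 93.03% of the WT UMIs lay in 10 nuclei, against 9.21% for Sec14l5. Odf3l1 had 0 UMIs in KO and 41 in WT, at least 11.4-fold lower against a floor of 3 counts per library.

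**Figure D4:**
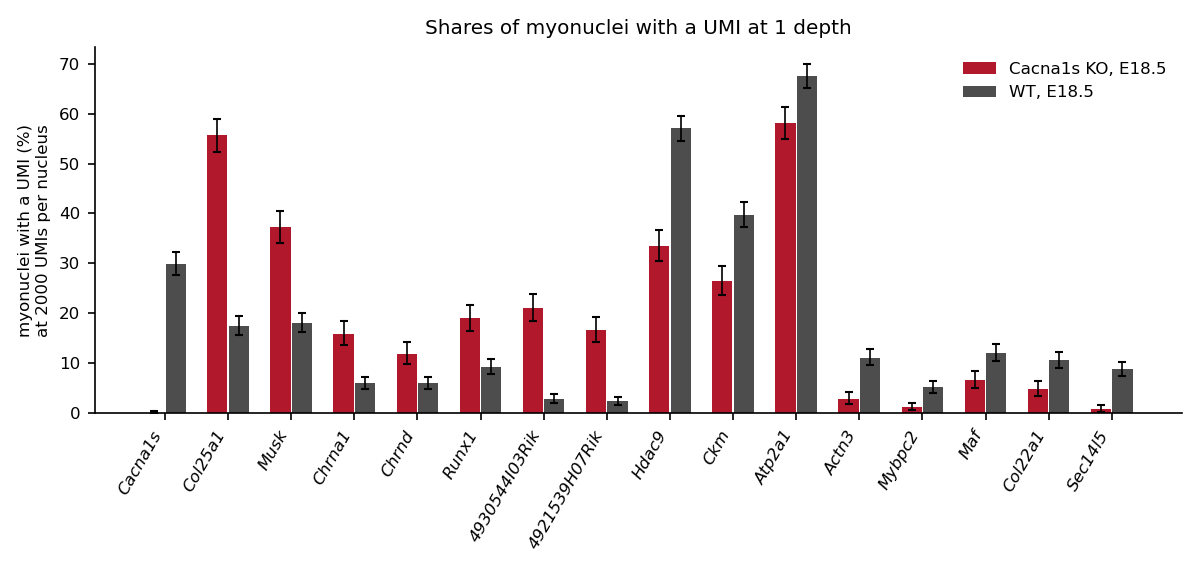
Share of myonuclei with at least 1 UMI of a gene, in percent, after each nucleus was thinned to 2000 UMIs (911 KO, red, left, and 1516 WT, grey, right), with exact binomial 95% intervals. KO exceeds WT for Col25a1 (55.7% and 17.5%), Musk (37.2% and 18.1%) and Chrna1 (15.9% and 6.003%), and lies under WT for Cacna1s (0% and 29.9%), Hdac9 (33.6% and 57.1%) and Actn3 (2.96% and 11.1%).

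Genes next to Cacna1s were examined because a cassette can disturb its surroundings. Of 16 genes measured with a start within 500 kb, Cacna1s included, 5 were lower and 1 higher in KO. Over all genes 5.98% were lower and 5.95% higher. The lower ones include Cacna1s itself and Gm37759 inside it. Pkp1, plakophilin 1 of desmosomes, had 9 KO and 99 WT UMIs (9.18-fold lower, 4.64 to 20.7), the WT ones in 18 nuclei. Inava had 4 and 28 UMIs (5.84-fold, 2.04 to 22.9), and Mroh3 2 and 23 (9.60-fold, 2.37 to 84.0). Gm37759, antisense inside Cacna1s, had 0 and 28, at least 7.79-fold lower. Igfn1, a Z-disc protein, was higher, with 38 and 19 UMIs (2.40-fold, 1.35 to 4.40). The better measured neighbors were within 2-fold: Tnni1, the slow troponin I, had 197 CPM in KO and 262 in WT, Camsap2 62.7 and 82.9, and Nav1 53.2 and 46.7. Tnnt2, given above as a developmental gene, is also a neighbor, with its start 216 kb away. It had 274 CPM in KO and 173 in WT (1.58-fold higher).

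The order of WT stages was set against the KO difference over all genes. P5 over E14.5 in WT used other libraries than the KO comparison, and 2233 of 13498 genes measured in both (16.5%) were at least 2-fold higher at P5 and 3025 (22.4%) lower. Of 722 genes lower in KO, 45.0% were higher at P5 and 23.0% lower, with a median log2 of P5 over E14.5 of 0.75, against -0.24 for all genes. Of 676 genes higher in KO, 26.0% were higher at P5 and 40.4% lower, with a median log2 of -0.44. Read the other way, 14.6% of the genes higher at P5 were lower in KO and 7.88% higher, and 9.02% of the genes lower at P5 were higher in KO and 5.49% lower. Xirp2, Nrap (80.0, 851 and 930.0 CPM at E14.5, P5 and adult), Casq1 (28.4, 478 and 403) and Ckmt2 (5.02, 136 and 344) are of the first kind. Cd36, with 349, 893 and 344 CPM, and Pdk4 are among the 26.0% of genes higher in KO that were also higher at P5. That share was itself above the 16.5% of all genes.

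Open chromatin at start sites was compared as ATAC counts of the peaks within 1 kb, in CPM of the counts of all peaks (ATAC CPM). KO myonuclei held 5167054 ATAC counts over 61874 peaks called in their library, and WT myonuclei 14160240 over 91265 peaks, so a start site can lack a peak in the shallower KO library. Of 17327 start sites, 309 (1.78%) were at least 2-fold higher in KO and 2098 (12.1%) lower. Among the lower ones 1580 had no KO peak, and among the higher ones 177 had no WT peak. Over the 15570 start sites with a peak in both libraries, 132 (0.848%) were higher and 518 (3.33%) lower. Of these, 580 belonged to genes with lower RNA in KO, and 10.5% of them had lower and 0.517% higher ATAC counts, with a median log2 of -0.23. Of 525 that belonged to genes with higher RNA, 4.76% were lower and 4% higher, with a median log2 of 0.07. For genes within 2-fold the shares were 1.47% lower and 0.473% higher.

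At the starts of the study's 10 denervation genes 2 were called higher, Musk and Trim63, and 1 lower. Musk had 177 counts in KO and 181 in WT, 34.3 and 12.8 ATAC CPM, a ratio of 2.68 (2.17 to 3.32). Trim63 had 42.6 ATAC CPM in KO and 17.5 in WT, a ratio of 2.43 (2.02 to 2.93), although its RNA was at 70.6 and 64.6 CPM. Chrna1 had 55.5 and 31.8 ATAC CPM, a ratio of 1.75 (1.502 to 2.03), and Chrnd 49.5 and 25.1, a ratio of 1.97. Chrng had 99.7 ATAC CPM in KO and 57.8 in WT, a ratio of 1.72. Chrnb1, Foxo3 and Foxo1 had ratios of 1.21, 1.14 and 1.11, closer to level. Hdac4, whose RNA ratio was 1.76, was the lower one, with no peak called in KO and 128 counts in WT, and Hdac9 had no peak in either library. Of the atrophy genes, Fbxo32 and Bnip3, with RNA 4.95-fold and 3.26-fold higher, had ATAC ratios of 1.37 and 1.09. Outside these lists Cd36, with 81 KO and 98 WT counts, had a ratio of 2.27 (1.67 to 3.07). The promoters of Musk, Trim63 and Chrna1, chosen after their values were seen, are given with motif matches in capitals (Musk chr4:58285712-58286011, + strand; Trim63 chr4:134314870-134315169, + strand; Chrna1 chr2:73580289-73580588, - strand).
Musk: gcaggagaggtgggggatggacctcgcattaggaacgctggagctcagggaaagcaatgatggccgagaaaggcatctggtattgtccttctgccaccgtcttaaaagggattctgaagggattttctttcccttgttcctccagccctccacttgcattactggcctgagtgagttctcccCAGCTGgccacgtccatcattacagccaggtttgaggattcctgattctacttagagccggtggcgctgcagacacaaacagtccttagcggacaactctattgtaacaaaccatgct
Trim63: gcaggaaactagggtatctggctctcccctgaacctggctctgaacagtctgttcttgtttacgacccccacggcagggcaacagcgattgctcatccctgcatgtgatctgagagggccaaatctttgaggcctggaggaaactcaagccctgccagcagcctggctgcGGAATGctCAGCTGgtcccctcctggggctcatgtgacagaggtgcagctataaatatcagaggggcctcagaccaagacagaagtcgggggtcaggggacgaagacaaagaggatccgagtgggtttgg
Chrna1: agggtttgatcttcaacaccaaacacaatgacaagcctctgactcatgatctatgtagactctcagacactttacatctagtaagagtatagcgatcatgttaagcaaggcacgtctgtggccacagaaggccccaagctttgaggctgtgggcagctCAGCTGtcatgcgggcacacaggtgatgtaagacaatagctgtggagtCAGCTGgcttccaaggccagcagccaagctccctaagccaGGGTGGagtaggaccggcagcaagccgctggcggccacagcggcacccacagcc
CAGCTG stood at base -68 in Musk, at -72 in Trim63, where GGAATG preceded it at -80, and at -92 and -44 in Chrna1. Chrna1 also held CCACCC at -4 on the other strand, read as GGGTGG. Among promoters of genes measured here 15.95% held CAGCTG, among those of genes higher in KO 21.7%, and among those of genes lower 18.9%. The larger share was not particular to CAGCTG. Among promoters of genes higher in KO 15.5% held GGAATG, 19.5% TGCTGA, 38.2% CCACCC, 2.42% the MEF2 site and 2.17% the CArG box. For genes measured these were 12.7%, 15.8%, 36.5%, 2.01% and 1.41%. A gene can have several promoters here (785 for 584 genes higher in KO).

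Genes with lower RNA were often less open, with exceptions. Ckmt2 had 74 counts in KO and 425 in WT, a ratio of 0.477, Creb5 82 and 494 (0.455), and Col1a2 a ratio of 0.355. Actn3 had 49.5 ATAC CPM in KO and 80.7 in WT (ratio 0.614), and Sec14l5, Pvalb and Kcnn2 had ratios of 0.598, 0.615 and 0.676. Mybpc2 and Ankrd2 each had a ratio of 1.08 with RNA 5.01-fold and 9.24-fold lower, and Casq1 had 1.61 with RNA 2.13-fold lower, so openness at the start did not follow RNA there. No KO peak was called at the starts of Xirp2 (106 WT counts), Nrap (199) and 2310016D03Rik (121), nor at Col25a1 (17 WT counts), whose RNA was higher in KO. No WT peak was called at the starts of Myf5 (65 KO counts) and Runx1 (14). Of 92 named genes with peaks in both libraries, 17 of the 20 with higher RNA had an ATAC ratio above 1, and 29 of the 37 with lower RNA had one below 1. Most of the 35 named genes with RNA within 2-fold also had a ratio above 1, so this was not particular to higher RNA. Over all genes with higher RNA and peaks in both libraries, 4% of start sites were called higher and 4.76% lower.

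**Figure D5:**
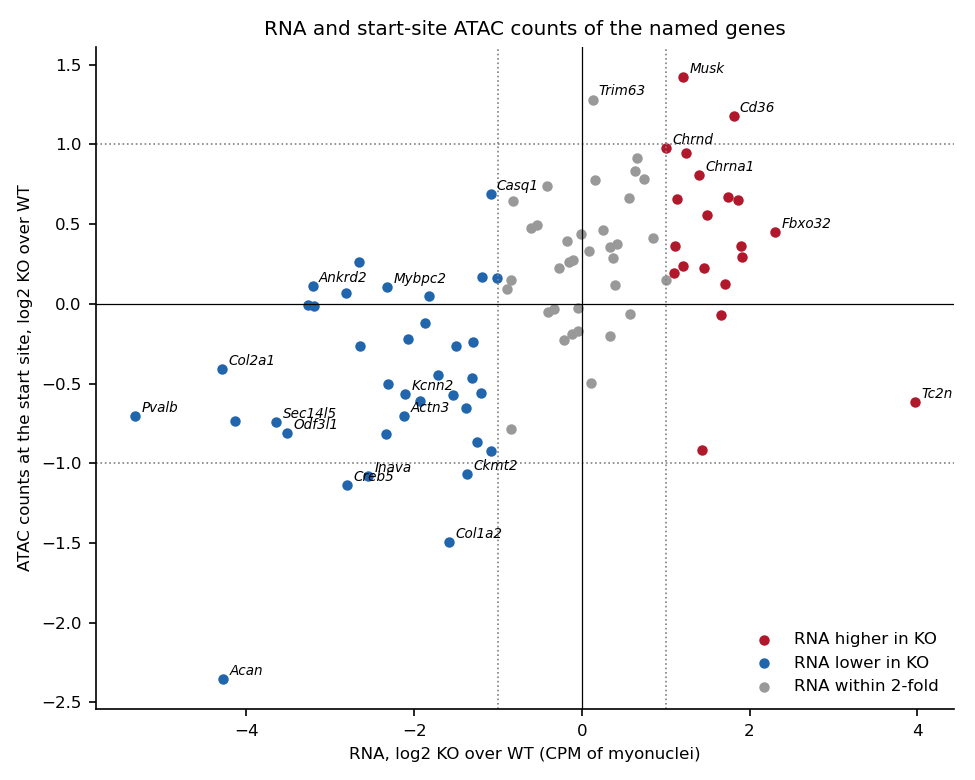
log2 ratio of RNA (horizontal) against log2 ratio of ATAC counts within 1 kb of the start site (vertical), KO over WT E18.5 myonuclei, for the 92 named genes with peaks in both libraries other than Cacna1s. Musk lies at the upper right (ATAC ratio 2.68), Trim63 high near the middle (2.43), Creb5 and Ckmt2 at the lower left (0.455 and 0.477), and Casq1 above 0 on the left (1.61).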

How the data were processed

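RNA and ATAC were measured in the same nuclei. The authors deposited raw counts per library (UMIs of genes, ATAC counts of peaks), made with Cell Ranger ARC 2.0.0 on mm10 with intronic reads included, without normalization and with peaks called within each library. Whether counting used strand is not given in the sources used here, and doublets were not removed. Groups came from the labels. UMIs were summed over myonuclei and scaled to CPM with pandas 2.3.3, scipy 1.17.1 and numpy 2.4.6 under Python 3.11.15, and plotted with matplotlib 3.10.9. A call needed 2-fold and 20 UMIs, a gene at 0 was set to a floor of 3 counts per library, and intervals (95%) are exact and cover counting error only. Thinning used seed 1. The calls were tested on simulated data. Coordinates count from 1. The members and lists were chosen with earlier results of these data known.

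Named were Cacna1s, the 12 genes higher and the 12 lower with the interval bound farthest from 1, all genes of the study's 4 lists, up to 4 called members of each other list (or its 2 with most UMIs), and genes within 500 kb of Cacna1s. A few list members beyond this rule (Lmod2, Csrp3, Myot, Mt1, Mt2, Myh1, Myh2, Tnnc2, Tnni2, Nr4a3, Junb, Jsrp1, Jph1, Megf10, Trp63, Pax7) and the pairs of genes found in the same nuclei were named after their values were seen. Some genes that the rule names are not reported here. Alternatives varied the limits on nuclei, the scaling (TMM factors from edgeR 4.0.16 in R 4.3.3), the depth, the minimum count and the nuclei included. Clusters were not made, and WT libraries of other ages serve only for the course of a gene.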

Additional observations from a re-analysis of the deposited data

Results flagged for a closer look

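In 3 named genes the difference between KO and WT had opposite directions in the myonuclei and in the other nuclei of the same 2 libraries, and the difference between the sets of nuclei was not tested. Fstl4, 3.16-fold higher in KO myonuclei, had a log2 ratio of -1.31 in other nuclei, where it stood at 2.47 CPM in KO and 6.14 in WT. Inava, 5.84-fold lower in KO myonuclei on 4 KO and 28 WT UMIs, had a log2 ratio of 1.05 in other nuclei (1.75 CPM in KO, 0.849 in WT). Mroh3, with 2 UMIs in KO myonuclei and 23 in WT myonuclei, had a log2 ratio of 2.80 in other nuclei (1.36 CPM in KO, 0.196 in WT).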

How the results depend on the processing

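The counts of called genes, 849 higher and 853 lower, moved with depth and the minimum count. Thinning each nucleus to 1000 UMIs gave 317 higher and 517 lower, a minimum of 100 UMIs 317 and 393, no minimum 3394 and 2771, and a call on the whole interval 323 and 284. Under the other limits on nuclei, scalings and subsets the counts ranged over 682 to 1013 higher and 781 to 896 lower. Start sites, 309 higher and 2098 lower, gave 132 and 518 with a peak required in both libraries and 84 and 661 with a minimum of 100 counts. Over 129 named genes and 16 alternatives there were 1975 values. Of these, 1643 lay within the counting interval of the main ratio, 330 lay outside it with the same sign and 2 changed sign. Lying within the interval does not mean a small move, because genes with few UMIs have wide intervals. Without nuclei with UMIs of other cell types, Gm50064 went from 20.7-fold to 72.5-fold higher and stayed within its interval. In the same alternative Dmd went from 1.19-fold to 1.18-fold and fell outside its interval. The 2 that changed sign were Myh7 and Stab2. Myh7 had a log2 of 0.24 without slow nuclei (Myh7 at least 0.1% of UMIs), and Stab2 had -0.32 with Ttn at least 2%. Without the nuclei that held Mmrn1, the log2 of Stab2 was 0.22. Of 88 named genes called, 71 kept the call in every alternative with enough UMIs, and 17 lost it in at least 1, among them Cacna1g, Cacng4, Camk4, Cdkn1c, Chrnd, Col1a2, Col22a1, Col5a3, Fstl1, Igfn1, Myf5, Myh7, Mymx, Nr1d1, Nr4a1 and Stab2. The cause was not tested. Leaving out nuclei with Mmrn1, with markers of other cell types or with Myf5 or Pax7 was chosen after seeing the data (for the markers, a limit of 3 UMIs was tried first and left few KO nuclei). No paired analysis was possible because each group is 1 library, and no replicate could be left out. Depth limits genes with few UMIs, whose intervals are wide, and start sites in KO, where fewer peaks were called.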
